A study of Mus musculus with 6 samples.

Results

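The myogenic transcription factors followed here were 9 genes taken by name: the myogenic regulatory factors Myod1, Myog, Myf5 and Myf6, the MEF2 factors Mef2a, Mef2c and Mef2d, the homeobox factor Six4 and the E protein Tcf12. Each gene was described by the RISC-IP peaks that overlapped at least 1 bp of its exons. An exonic peak was listed for 6 of the 9 genes in at least 1 of 5 libraries, and for 4 of the 9 in all 5. Of all 21951 protein-coding genes in the annotation, 46.9% had an exonic peak in at least 1 of these libraries and 19.0% in all 5.

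The cells were primary mouse satellite cells (MSC), the progenitors of adult skeletal muscle, kept for 30 h in differentiation medium (DM). They received miR-222 duplex RNA (miR-222-IP) or an siGFP duplex (control-IP) and stayed in DM for 16 h more, and RNA was immunopurified with antibodies to Ago2, which carries the miRNA within the RNA-induced silencing complex (RISC), and sequenced. The labels give 10 nM duplex, where the study's methods state a higher concentration, no strain or age, and no untransfected group, so every library comes from transfected cells. Experiment 1 held control-IP replicates 1 and 2 with miR-222-IP replicate 1, and experiment 2 held control-IP replicates 3 and 4 with miR-222-IP replicate 2. The title of the last library reads miR22 and its condition label miR222, and the condition label was followed. The sources used here do not say how many animals or cultures stood behind a library, so the spread between libraries may be technical.

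The files list peaks, with the −log10 p that the authors' peak caller gave each one above a threshold of 20. Read counts were not used here and the depth behind a peak is unknown. The value rises with enrichment and with depth, so a ratio of 2 values is not a fold in reads, and a gene without a peak may still have been present. The lists of the 5 libraries held 10579 to 37762 peaks of median width 362 to 411 bp, the longest being that of miR-222-IP replicate 2. Control-IP replicate 3 stood apart, with 3619 peaks of median width 32103 bp on 10 of the 21 main chromosomes, and is described separately. Values of the other 3 control-IPs are given in the order of replicates 1, 2 and 4, and those of the miR-222-IPs in the order of replicates 1 and 2.

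The RNA in these libraries was checked against marker genes. All 8 myocyte markers had an exonic peak in at least 1 library, and 6 of them in all 5. The satellite cell marker Pax7, the fibroblast markers Col1a1 and Dcn and all 3 adipocyte markers had none. All 4 macrophage markers had one, and Adgre1, which encodes the surface protein F4/80, was listed at 219, 196 and 236 in the control-IPs and at 235 and 226 in the miR-222-IPs. For comparison the sarcomeric actin Acta1 was listed at 43.2, 37.0 and 44.0 in the control-IPs and at 55.3 and 141 in the miR-222-IPs. The libraries thus held RNA of macrophage genes beside that of muscle genes, and Mef2 genes are also used by macrophages. In a bulk library, fewer muscle cells and less muscle RNA per cell cannot be told apart.

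As background, Myod1 and Myf5 commit progenitors to the muscle lineage, Myog drives their terminal differentiation, and Myf6 (MRF4) is used in commitment and in the mature fibre. These basic helix-loop-helix proteins bind E boxes as dimers with E proteins such as the product of Tcf12. MEF2 proteins bind neighbouring sites and act with them on genes of the sarcomere and the neuromuscular junction. miRNAs recognise mRNAs mainly through the seed, bases 2 to 8, which pairs with a complementary stretch of the target.

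The miRNAs below are shown because their seeds were searched for under the peaks. miR-222 was the transfected RNA and miR-221 shares its seed, miR-206 and miR-133 are muscle miRNAs, let-7 is abundant in differentiated cells, and miR-31 is known to act on Myf5. The mature sequences come from RefSeq on GRCm38.p6, 5′ to 3′ and with the seed in capitals. Of the families of miR-1 and miR-206 and of miR-133, the members printed are those found in that table.
miR-222-3p: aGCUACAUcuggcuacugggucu
miR-221-3p: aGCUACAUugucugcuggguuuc
miR-206-3p: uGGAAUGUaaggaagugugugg
miR-133b-3p: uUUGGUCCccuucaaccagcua
let-7a-5p: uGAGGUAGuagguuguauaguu
miR-31-5p: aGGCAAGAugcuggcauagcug

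Tcf12 was the only one of the 9 genes with the seed match of miR-221 and miR-222, ATGTAGC, under a peak of the 5 libraries. It had 2 such matches, both followed by an A. They are printed in the sense of the mRNA with the match in capitals, from GRCm38.
Tcf12, 3′UTR, chr9:71844292-71844321, minus strand: tatataacatttATGTAGCaataaatgtgc
Tcf12, beside exon 16, chr9:71868339-71868368, minus strand: cctgaatagaagATGTAGCagcttagtaaa
The match in the 3′UTR lay under a peak of miR-222-IP replicate 2 only, at −log10 p of 46.9. The match beside exon 16 lay in a stretch that is exonic only in non-coding transcripts of the gene, under peaks of both miR-222-IPs, at 20.2 and 51.7, and under none of the 3 control-IPs. The value of 20.2 is just above the authors' threshold. The list of miR-222-IP replicate 2 was also the longest, with 37762 peaks against 10579, 20000 and 17892 in the 3 control-IPs. How many intervals of all genes were listed in both miR-222-IPs and in no control-IP was not counted. Exons of the 9 genes held 4 such matches in all, and the other two, in the 3′UTR of Six4 (chr12:73102940-73102946) and in a non-coding exon of Tcf12 (chr9:71943621-71943627), lay under no peak of the 5 libraries.

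**Figure D1:**
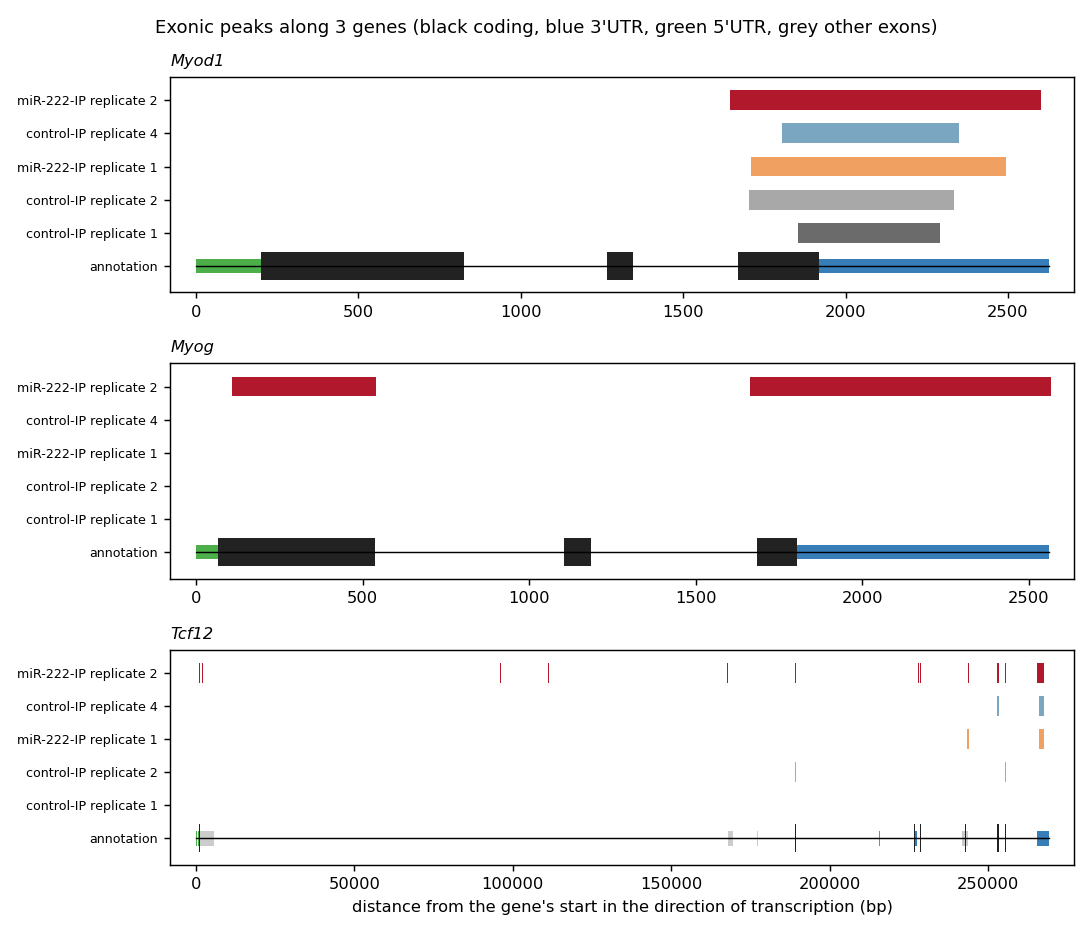
Exonic peaks of 5 libraries along Myod1, Myog and Tcf12, with the distance from the start of the gene in bp on the x axis and 1 row per library above the annotation. Peaks of Myod1 lie over the end of the gene in every row, peaks of Myog appear in miR-222-IP replicate 2 alone, and Tcf12 has 13 peaks there against 0 to 3 in the other rows.

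Among the myogenic regulatory factors, Myod1 had a peak in every library and Myog in miR-222-IP replicate 2 alone, while Myf5 and Myf6 had none. Myod1 (ENSMUSG00000009471.4, chr7:46376474-46379099, plus strand, 3 exons) carried 1 peak per library, all within chr7:46378119-46379076, over the end of the coding sequence and the 3′UTR. The peak stood at −log10 p of 27.4, 22.3 and 26.8 in the control-IPs. It stood at 29.2 in the miR-222-IP of experiment 1 and at 174 in that of experiment 2. The control-IPs and the miR-222-IP of experiment 1 lay near the threshold, the latter just above the 3 control-IPs before scaling and within their range after it (27.6 against 22.9 to 38.8), and the miR-222-IP of experiment 2 lay far above them.

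Within its own list the Myod1 peak lay in the top 67.6%, 89.1% and 71.9% of peaks in the control-IPs and in the top 65.6% and 1.96% in the miR-222-IPs, and these lists differ in length. After scaling of the libraries by the median of ratios over intervals with a peak in all 5, the log2 ratio of miR-222-IP over control-IP was −0.16 in experiment 1 and 2.11 in experiment 2, with a mean of 0.97. The exact permutation test of the labels within experiments, two-sided, gave p = 0.667, and its 6 arrangements allow no p below 0.167. The scaled values of the 2 control-IPs of experiment 1 differed by a log2 ratio of 0.76. Without miR-222-IP replicate 2, or without control-IP replicate 4, the ratio was −0.16, so the direction rests on experiment 2.

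Within experiment 2, a log2 ratio of 2 or more was found in 21 of 16869 exonic intervals (0.124%), and the Myod1 interval ranked 15th from the highest. It was the only interval of the 9 genes at that level, of 23 that had a peak in both libraries. Peaks covered 52.8%, 58.6% and 61.0% of the 708 bp of the Myod1 3′UTR in the control-IPs and 81.4% and 96.8% in the miR-222-IPs. Coverage of its 954 coding bp was lower, from 6.60% to 22.4% in the control-IPs and 22.0% and 26.0% in the miR-222-IPs.

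Myog (ENSMUSG00000026459.5, chr1:134289989-134292548, plus strand, 3 exons) had 2 exonic peaks in miR-222-IP replicate 2 and none in the other 4 libraries. The peak over coding bases of exon 1 (chr1:134290096-134290527) stood at 52.7. The peak over exon 3 (chr1:134291651-134292553), with the end of the coding sequence and all 756 bp of the 3′UTR, stood at 75.7, in the top 19.6% of its list. Together they covered 81.8% of the Myog coding sequence. Of the 9 genes Myog was the only 1 with miR-222-IP replicate 2 as its only library, as were 14.1% of the 10289 protein-coding genes with an exonic peak.

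Myf5 (ENSMUSG00000000435.1) and Myf6 (ENSMUSG00000035923.4) are neighbours on chromosome 10, at 107482908 to 107486134 and 107492853 to 107494737, both on the minus strand. No library listed a peak over their exons, control-IP replicate 3 included, whose list does hold peaks on that chromosome. The 3′UTR of Myf5 held 1 match to the miR-31 seed and the coding sequence of Myf6 held 1 match to the miR-133 seed, both outside any peak.

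**Figure D2:**
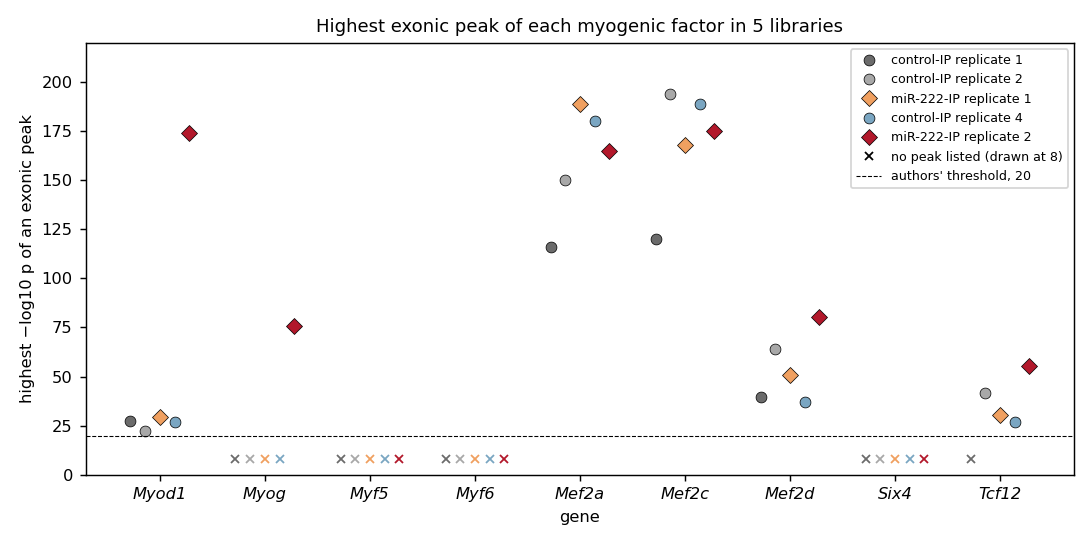
Highest −log10 p among the exonic peaks of each gene on the y axis, with 1 symbol per library, circles for control-IPs, diamonds for miR-222-IPs and crosses for libraries with no listed peak. Myod1 sits at 22.3 to 29.2 in 4 libraries and at 174 in miR-222-IP replicate 2, whereas Mef2a and Mef2c lie between 116 and 194 in every library.

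The MEF2 genes had exonic peaks in all 5 libraries. Mef2a (ENSMUSG00000030557.17, chr7:67231163-67372858, minus strand) had its highest peak at 116, 150 and 180 in the control-IPs and at 189 and 165 in the miR-222-IPs. Mef2c (ENSMUSG00000005583.16, chr13:83504034-83667080, plus strand) stood at 120, 194 and 189 in the control-IPs and at 168 and 175 in the miR-222-IPs. Mef2d (ENSMUSG00000001419.17, chr3:88142372-88172086, plus strand) stood at 39.6, 63.8 and 37.0 in the control-IPs and at 51.0 and 80.1 in the miR-222-IPs. For all 3 genes the unscaled values of miR-222-IP replicate 1 lay within the range of control-IPs or just above it, and those of miR-222-IP replicate 2 left that range only for Mef2d.

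On the scaled values, the log2 ratio of miR-222-IP over control-IP was 0.17 in experiment 1 and −0.72 in experiment 2 for Mef2a (mean −0.28, exact permutation p = 1.00), and −0.34 and 0.52 for Mef2d (mean 0.09, exact permutation p = 1.00). Mef2c had −0.21 and −0.70 (mean −0.46, exact permutation p = 0.333). It was the only 1 of the 4 genes with a peak in all 5 libraries whose miR-222-IPs were both below the control-IPs of their experiment, and none had both above. Unscaled, its miR-222-IP replicate 1 lay between its control-IPs. Over all 4160 such genes, 14.5% were below in both experiments and 18.5% above, and the mean ratio had a median of 0.04 and an SD of 0.36 across genes. Without scaling the Mef2c ratio was 0 to 2 decimals and that of Mef2a was 0.19, so the sign of the Mef2a mean depends on the scaling, whose factor for miR-222-IP replicate 2 was 1.490.

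Peaks of the MEF2 genes lay over several coding exons and the 3′UTR of each gene. Merged over the 5 libraries there were 10 exonic intervals in Mef2a, 12 in Mef2c and 6 in Mef2d, and 1 of those in Mef2a also overlapped an exon of the gene Lysmd4. Of 43 intervals in the 6 genes with peaks, 18 were found in all 5 libraries, against 19.8% of 38946 exonic intervals of all genes, and 12 in miR-222-IP replicate 2 alone, against 30.9%. Among the 18, both miR-222-IPs were above the control-IPs of their experiment in 1 (17.6% of such intervals of all genes) and below in 3 (18.0%).

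The interval above was exon 3 of Mef2a (chr7:67316667-67317097), with the start of the coding sequence. It stood at 39.3, 22.2 and 67.2 in the control-IPs and at 89.8 and 130 in the miR-222-IPs, a mean log2 ratio of 0.73 after scaling (exact permutation p = 0.333). The lowest of the 3 was the 3′UTR of Mef2c (chr13:83662758-83666443), at 97.7, 116 and 89.1 in the control-IPs and 79.6 and 50.6 in the miR-222-IPs. Its mean log2 ratio was −1.09, with −0.78 in experiment 1 and −1.41 in experiment 2 and an exact permutation p = 0.167, the smallest the test can give. The miR-222-IPs were on the same side of their control-IPs in both of these intervals without scaling. The other 2 were the 3′UTR of Mef2a (chr7:67231326-67233772), with a mean of −0.80, and a 5′UTR interval of Mef2c (chr13:83524774-83525205), with a mean of −0.33, both with exact permutation p = 0.333. In both 3′UTRs the length under peaks went the other way. Peaks covered 50.5%, 32.3% and 73.2% of the Mef2c 3′UTR in the control-IPs and 78.8% and 79.8% in the miR-222-IPs. For the whole Mef2a 3′UTR the shares were 45.7%, 43.2% and 63.1% against 74.0% and 86.8%. An interval's value was its highest peak, and each miR-222-IP had 1 peak over the Mef2c 3′UTR where the control-IPs had 2 or 3.

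**Figure D3:**
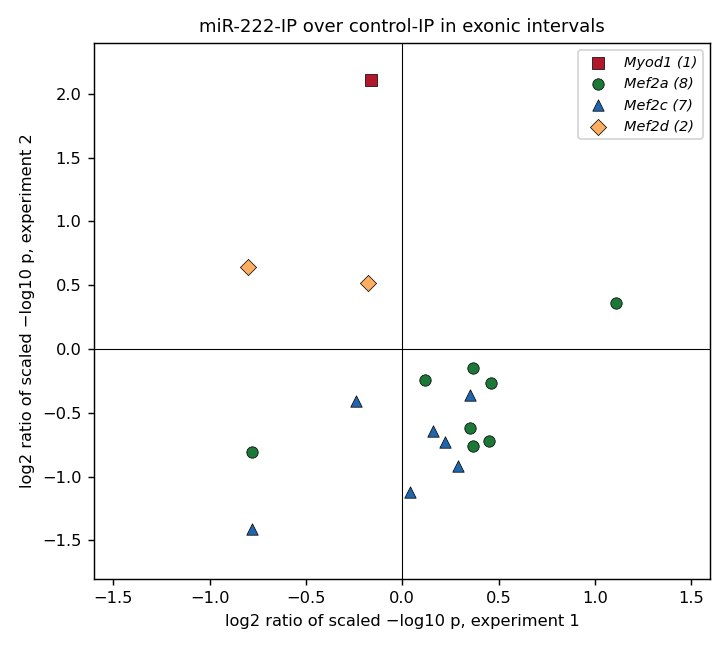
Log2 ratio of scaled −log10 p, miR-222-IP over control-IP, in experiment 1 (x axis) and experiment 2 (y axis), with 1 point for each of the 18 exonic intervals that had a peak in all 5 libraries. The Myod1 point lies at −0.16 and 2.11, both Mef2d points lie at upper left, and all 7 Mef2c points lie below 0 in experiment 2.

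Mef2a and Mef2c each carry a pair of coding exons that no annotated coding transcript joins, known as the mutually exclusive α exons. Both exons of the Mef2a pair (chr7:67268269-67268400 and chr7:67268067-67268204) lay entirely under a peak in all 5 libraries. So did both exons of the Mef2c pair (chr13:83625265-83625408 and chr13:83625470-83625607), except that the second was covered only in part in control-IP replicate 1. Since 1 peak ran over both exons of a pair in each library, the lists do not separate the forms.

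Mef2d held matches to the let-7 and miR-31 seeds under peaks of every library. They are printed because they lie in the part of the Mef2d 3′UTR that was covered in all 5, from GRCm38 with the match in capitals.
let-7 match in Mef2d, chr3:88170546-88170575, plus strand: tctccccacagcCTACCTCcaccagggctt
miR-31 match in Mef2d, chr3:88170664-88170693, plus strand: aactcaagttctTCTTGCCcggagctttgc
miR-31 match in Mef2a exon 9, coding, chr7:67240385-67240414, minus strand: agccactcaaccTCTTGCCacgcctgtagt
The interval with both Mef2d matches stood at 39.6, 52.0 and 37.0 in the control-IPs and at 51.0 and 80.1 in the miR-222-IPs. The Mef2a interval stood at 35.9, 35.9 and 57.8 in the control-IPs and at 50.4 and 73.7 in the miR-222-IPs.

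Of the 42 intervals of these genes that overlapped exons of 1 strand only, 2 (4.76%) held the match of miR-221 and miR-222, ATGTAGC, and 2 (4.76%) the let-7 match CTACCTC, as did 2 (4.76%) the miR-31 match TCTTGCC, searched on the strand of the gene. Over 37545 such intervals of all genes the shares were 2.51%, 3.62% and 4.25%, with median widths of 414 bp here and 373 bp overall. The match of miR-1 and miR-206, ACATTCC (3.44% of all intervals) and the miR-133 match GGACCAA (3.25%) were in none of the 42. Introns under a peak were searched too, here and over all genes. Of the 2 let-7 intervals, the 1 in Mef2a held its match in an intron (chr7:67268001-67268007). A match describes the letters of a window and does not show that the miRNA was bound.

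Tcf12 (ENSMUSG00000032228.16, chr9:71842688-72111871, minus strand), which encodes the E protein HEB, had no exonic peak in control-IP replicate 1. Its highest was 41.8 and 27.0 in the other two control-IPs and 30.3 and 55.6 in the miR-222-IPs. Its peak count over 21 exons differed more than this value. The control-IPs had 0, 3 and 2 exonic peaks and the miR-222-IPs had 2 and 13. Peaks covered 65.0% of its coding bases in miR-222-IP replicate 2, against 0% to 18.3% in the other 4 libraries. Of its 12 merged intervals, 6 were found in miR-222-IP replicate 2 alone and none in all 5.

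The highest values inside the Tcf12 gene belonged to another sequence. In all 5 libraries an intronic peak lay over Rpl15-ps2, a ribosomal protein pseudogene, at 215, 192 and 203 in the control-IPs and at 205 and 243 in the miR-222-IPs. That pseudogene was named after its values were seen. Reads of a near-identical parent mRNA can align to such a copy, and these peaks overlapped no exon of Tcf12 and were not counted for it.

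Six4 (ENSMUSG00000034460.9, chr12:73099609-73113456, minus strand), which acts with EYA cofactors on the Myog promoter, had no exonic peak in the 5 libraries. Control-IP replicate 3 listed a peak of 37.9 over it, 38331 bp wide, which also covered exons of the gene Mnat1. The same library listed a peak of 139 over Myog, 93431 bp wide, and 1 of 59.2 over Mef2c, 204296 bp wide. These peaks span several genes or a whole gene with its introns and cannot be placed on an exon. Myod1, Mef2a, Mef2d and Tcf12 lie on chromosomes where that library lists no peak, and whether its list is complete is not known.

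**Figure D4:**
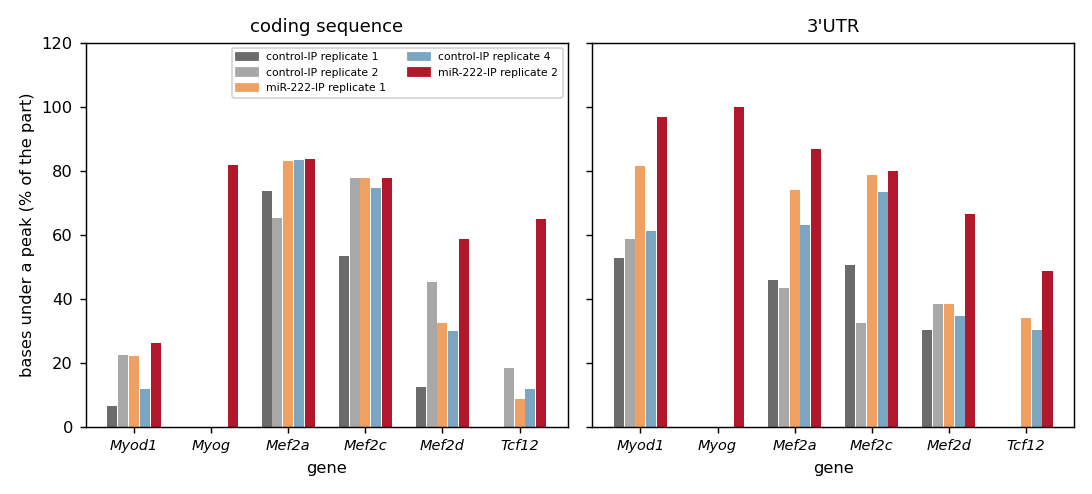
Share of the coding sequence (left) and of the 3′UTR (right) of 6 genes that lay under a peak, in percent on the y axis, with 1 bar per library. Mef2a and Mef2c are covered over 53.3% or more of the coding sequence in every library, whereas Myog is covered in miR-222-IP replicate 2 alone.

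By transcript part, 3′UTRs made up 61.6%, 50.4% and 65.4% of the exonic bases under peaks of the 9 genes in the control-IPs and 66.0% and 61.1% in the miR-222-IPs. Pooled over the bases of all 5 libraries the share was 61.5%, and the SD between libraries was 6.27 percentage points, with 1 miR-222-IP just above the range of the control-IPs and the other within it. Per length, which allows genes to be compared, peaks covered 53.3% to 77.8% of the Mef2c coding sequence, 65.1% to 83.8% of that of Mef2a and 12.5% to 58.7% of that of Mef2d. The range of Mef2a overlapped that of Mef2c, and that of Mef2d overlapped Mef2c only through miR-222-IP replicate 2. Coverage of the 3′UTR was 43.2% to 86.8% for Mef2a, 32.3% to 79.8% for Mef2c and 30.2% to 66.5% for Mef2d. In the same order, these 3′UTRs have 3708, 4452 and 3727 bp, against 1632, 1560 and 1683 coding bp. The share of 61.5% was not set against that of all exonic peaks.

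Counted by library, an exonic peak was listed for 4, 5 and 5 of the 9 genes in the control-IPs and for 5 and 6 in the miR-222-IPs. The shares of all protein-coding genes were 21.4%, 34.8% and 29.8% in the control-IPs and 33.2% and 44.7% in the miR-222-IPs. The step from the first control-IP to miR-222-IP replicate 2 was seen over all genes too.

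The genes these factors act with and act upon were followed as 2 lists. The first had 41 partners, such as E proteins, ID proteins, homeobox and EYA factors and class II histone deacetylases, and 9, 13 and 9 of them had an exonic peak in the control-IPs and 13 and 24 in the miR-222-IPs. Of all protein-coding genes, 21.4%, 34.8% and 29.8% had one in the control-IPs and 33.2% and 44.7% in the miR-222-IPs. Of the 24 partners with a peak in any library, 8 were in miR-222-IP replicate 2 alone, against 14.1% of all protein-coding genes with a peak. Among these 8 were Tead4 at 50.1 and Smyd1, a muscle methyltransferase, at 95.7. The ID genes, whose products hold E proteins away from MyoD, were at 33.5 (control-IP replicate 1), 49.4 (control-IP replicate 4), 56.8 and 67.8 (miR-222-IPs) for Id2, with no peak in control-IP replicate 2, and Id1 and Id4 had none in any. Id3 had a peak in the miR-222-IPs, at 26.6 and 28.7, and in no control-IP. The E proteins Tcf3 and Tcf4 had a peak in all 5.

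The second list had 15 known targets of the myogenic factors, of which the study also names Cdkn1c and Chrng as miR-222 targets. All 15 had an exonic peak in miR-222-IP replicate 2, against 8, 9 and 9 in the control-IPs and 11 in miR-222-IP replicate 1. Over all protein-coding genes the shares were 44.7% in miR-222-IP replicate 2, 21.4%, 34.8% and 29.8% in the control-IPs and 33.2% in miR-222-IP replicate 1. Ckm, the muscle creatine kinase, had no peak in control-IP replicates 1 and 4, 28.3 in control-IP replicate 2 and 24.6 and 200 in the miR-222-IPs. Tnni1, the slow troponin I, had 22.9 in control-IP replicate 4, 21.1 and 214 in the miR-222-IPs and no peak in the other two libraries. Mymk, the fusogen myomaker, stood at 61.1, 43.5 and 48.5 in the control-IPs and at 69.7 and 183 in the miR-222-IPs. The pattern of low values in 4 libraries and a high value in miR-222-IP replicate 2 was thus not particular to Myod1 and Myog.

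The highest scaled value of a gene fell in miR-222-IP replicate 2 for 13 of the 15 targets and for 7 of the 8 myocyte markers. Of those 8 markers, 5 are also among the targets. It fell there too for 2 of the 6 myogenic factors with a peak, Myod1 and Myog, beside 43.1% of all protein-coding genes with a peak. The median log2 ratio in experiment 2 was 1.32 over the 9 targets with both values and 0.26 over all 6532 such genes. In experiment 1 the medians were 0.02 over 8 targets and −0.08 over 4305 genes. The exceptions among targets were the cell cycle inhibitor Cdkn1a and the myosin gene Myh3. Cdkn1a stood at 160, 139 and 148 in the control-IPs and at 164 and 156 in the miR-222-IPs. Myh3 stood at 67.2, 51.6 and 62.0 in the control-IPs and at 75.4 and 102 in the miR-222-IPs. It was highest in miR-222-IP replicate 2 only before scaling.

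**Figure D5:**
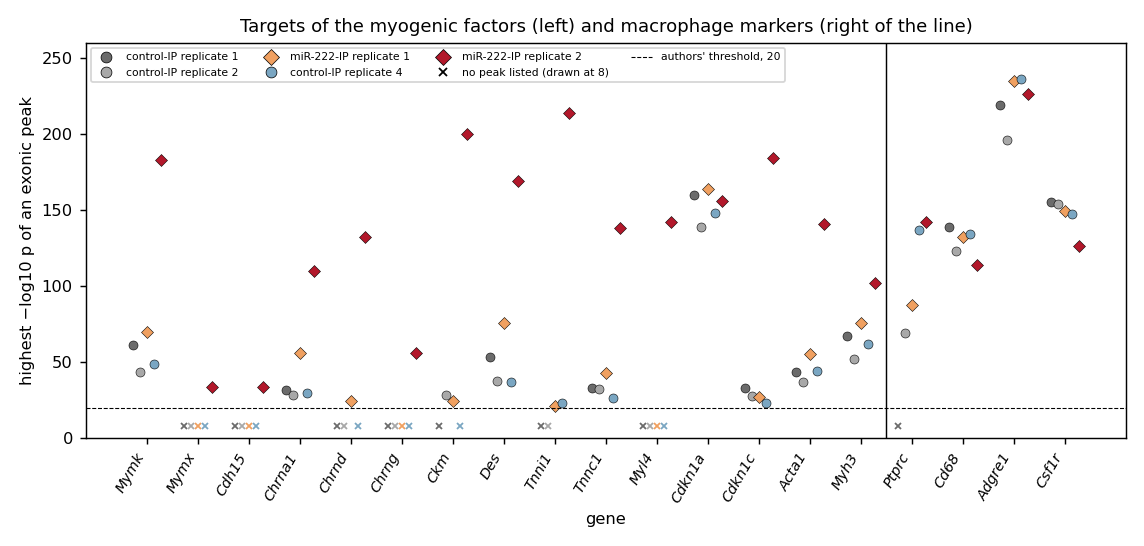
Highest −log10 p among the exonic peaks of 15 target genes (left of the line) and 4 macrophage markers (right), with symbols by library and crosses where no peak is listed. Most targets stand highest in miR-222-IP replicate 2, whereas of the macrophage markers Ptprc is highest there (142), Adgre1 lies within the range of the others (226) and Cd68 and Csf1r are lowest (114 and 126).

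Markers of muscle moved with the Myod1 and Myog values. Summed over the 8 myocyte markers, the scaled highest −log10 p was 480, 305 and 275 in the control-IPs and 426 and 805 in the miR-222-IPs. Over the 4 macrophage markers the scaled sum was 727, 558 and 661 in the control-IPs and 570 and 408 in the miR-222-IPs. A gene without a listed peak added nothing to a sum. The sums held 7, 8 and 6 myocyte genes in the control-IPs and 8 in each miR-222-IP. They held 3, 4 and 4 macrophage genes in the control-IPs and 4 in each miR-222-IP. Unscaled, the myocyte sums were 339, 296 and 272 in the control-IPs and 451 and 1200 in the miR-222-IPs, and the macrophage sums 513, 542 and 654 against 603 and 608. The library with the highest values for Myod1, Myog and their targets had the highest myocyte sum on both scales, and the lowest macrophage sum only after scaling. Myh3, Acta1, Mymk, Ckm and Des are both targets and myocyte markers, so the myocyte sum is not independent of the target values. The part of cell makeup and of list length in the Myod1 and Myog values was not tested. As only 1 of the 2 miR-222-IPs showed them, an effect of miR-222 and a property of that library cannot be told apart.

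Genes with a pattern like that of Myod1 over the 5 libraries were sought among 4159 genes with a peak in all 5, by Euclidean distance of log2 scaled values. The nearest were Actn2 (distance 0.33), Hspb8 (0.48) and Cdkn1c (0.49). Actn2, which encodes a sarcomeric α-actinin, stood at 28.9, 22.3 and 24.0 in the control-IPs and at 30.0 and 143 in the miR-222-IPs. Hspb8, a small heat shock protein gene, stood at 200 in miR-222-IP replicate 2 and at 21.6 to 37.7 in the others, and Cdkn1c, which encodes p57, at 184 and at 22.7 to 32.9. The study names p57 as a known miR-222 target and cites a report that MyoD is one. Neither was tested here.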

How the data were processed

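RISC-IP RNA of 6 libraries was aligned by the authors to mm10 with SOAPSplice and peaks were called per library with macs2, whose version and control track are not given in the sources used here. The deposited unit is the −log10 p of each peak, filtered by the authors above 20, so count models could not be used and depth is unknown. Peaks were assigned with Python 3.11.15 and numpy 2.4.6 to exons of GENCODE M21 on GRCm38 when at least 1 bp overlapped, and overlapping or touching peaks of 5 libraries were merged. Control-IP replicate 3 was kept apart. A gene's value was its highest exonic peak. Log2 ratios were taken within each experiment after median-of-ratios scaling and averaged. The labels were permuted exactly within experiments, and these p-values measure only the spread between libraries, which may be technical. Sequences were read with pysam 0.24.0. The statistics were tested on simulated data.

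The members and lists were chosen with earlier results of these data known. Named genes were the 9 members, any gene of the partner, target and marker lists, and for Myod1 the 3 nearest genes. Myog, with a peak in 1 library, had no value for that search. Alternatives covered threshold, overlap, annotation, scaling, block, seed length, merging distance and omitted libraries, and an equal number of peaks per library was added after seeing the data.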

Additional observations from a re-analysis of the deposited data

Results flagged for a closer look

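Control-IP replicate 3, left out of the comparisons, listed a wide peak of 139 over Myog and one of 37.9 over Six4, where control-IP replicates 1, 2 and 4 listed no exonic peak. Both cover exons of neighbouring genes, so the signal could not be placed on either gene. The log2 ratio of miR-222-IP over control-IP had opposite signs in the 2 experiments for Mef2a, which differed by −0.89 (experiment 2 minus experiment 1), and for Mef2d, which differed by 0.86. The difference between experiments was not tested for either gene, since experiment 2 has 1 control-IP and 1 miR-222-IP in the 5 libraries. Myod1 also had opposite signs, at −0.16 and 2.11, and its values are given above.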

How the results depend on the processing

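The depth behind each peak is unknown, and no alternative gives counting error. At a threshold of 50 the genes with a peak in every library fell from 4 to 2 and the partners with a peak from 24 to 14. With control-IP replicate 3 included, 1 gene, Mef2c, had a peak in every library. Myod1, Mef2a and Mef2d could not count there, since they lie on chromosomes where that library lists no peak. With every list held to the 10579 highest peaks, an alternative chosen after seeing the data, miR-222-IP replicate 1 and control-IP replicate 4 each had 3 of the 9 genes in place of 5. Mean log2 ratios were 0.97, −0.28, −0.46 and 0.09 for Myod1, Mef2a, Mef2c and Mef2d. Leaving out each library in turn gave −0.16 to 2.11 for Myod1, −0.72 to 0.17 for Mef2a, −0.70 to −0.21 for Mef2c and −0.34 to 0.52 for Mef2d, so only Mef2c kept its sign. Mef2a turned to 0.19 without scaling, and Mef2d to −0.32 with scaling to the sum of exonic −log10 p and to −0.06 without the experiment block. No paired analysis was possible because the labels give no replicate pairs beyond the experiment, which was the block. No exact p was below 0.167 under the alternatives where the test was run, and it was not run without the block or where leaving out a library left an experiment without a comparison. Giving a missing peak the lowest listed value could not change these 4 genes, which have a peak in all 5 libraries. With missing peaks so filled, Myog had −0.37 in experiment 1 and 1.33 in experiment 2 (mean 0.48). Tcf12 had −0.31 and 0.45 (mean 0.07). For Myog the experiment 1 ratio holds filled values only. With 6-mers, seed matches rose to 6 (miR-221 and miR-222), 3 (miR-1 and miR-206), 4 (miR-133), 6 (let-7) and 11 (miR-31), from 2, 0, 0, 3 and 3, and over the wide peaks of all 6 libraries to 12, 16, 6, 14 and 9. At a threshold of 50, 1 match of miR-221 and miR-222 was left. These counts include letters of introns under a peak.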
